A study of Mus musculus with 8 samples.

Results

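Dorsal skin of wild-type mouse embryos at embryonic day 18.5 (E18.5) was compared with dorsal skin at E16.5, with 3 arrays at each stage. These are 6 of the 8 arrays of a series that followed gene regulation while the epidermis differentiates, and the other 2 arrays, at E14.5, only added to the estimate of spread. Every probeset with 1 gene symbol was read, which gave 34945 of the 45101 probesets and 18193 genes. The labels name no treatment, strain or litter, nor whether every array is a different embryo. Xist, the RNA of the inactive X chromosome in females, was high on 2 of the 3 E16.5 arrays and 1 of the 3 E18.5 arrays, so each stage held at least 2 embryos, but how far the spread behind the p-values is between embryos is not known.

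In late gestation mouse skin completes its water barrier, hair follicles grow down into the dermis, melanocytes settle in the follicles, and a layer of fat cells forms beneath the dermis. Fat cells store fatty acids as triglycerides on a glycerol backbone. The same days prepare the skin for the dry, oxygen-rich and microbe-laden world outside the uterus. The genes described here were chosen mostly from outside the keratin and cornified envelope families.

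The tissue label was set beside defining markers: all 7 markers of basal keratinocytes, all 10 of suprabasal keratinocytes and all 14 of dermal fibroblasts were above background on all 6 arrays. So were all 18 of blood endothelium, all 12 of melanocytes and 18 of 20 of skeletal muscle, but 3 of 13 of cartilage and bone. Being above background therefore does not by itself tell skin from muscle. Skin holds many cell types, and in whole tissue more cells of a type and more RNA per cell cannot be told apart. The stages differed in array measures as well. From the earlier to the later stage, the median signal of an array went from 120.1–128.9 to 137.5–152.6. The 3′ over 5′ ratio of beta-actin went from 1.11–1.14 to 1.35–1.37, and cre, a transcript added before hybridisation, from 14152–15316 to 20039–20942. Background, taken from olfactory and vomeronasal receptor probesets, went from 37.1–54.1 to 62.9–92.9, and the 69 receptor genes had a median log2 change of 0.348. The 2 E14.5 arrays had beta-actin ratios of 6.49 and 6.91 and cre of 52237 and 52566, above those of the 6 arrays compared. These 2 arrays entered the estimate of spread. The part of these array differences in any result was not tested.

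Of the 34945 probesets, 3742 (10.7%) passed the test, which was an adjusted p under 0.05 from limma with Benjamini-Hochberg adjustment. They divided into 2191 that rose (6.27%) and 1551 that fell (4.44%), so that 58.6% of the called probesets rose. That split depended on scaling: when each array was centred on its median, 1234 rose and 2898 fell, which is 29.9% rising, and the median log2 change of all probesets went from 0.123 to -0.049. Leaving out E16.5 replicate 1, 2 or 3 lowered the number called to 1662, 1563 and 1208. The plot of probesets called under each setting shows these counts side by side.

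**Figure D1:**
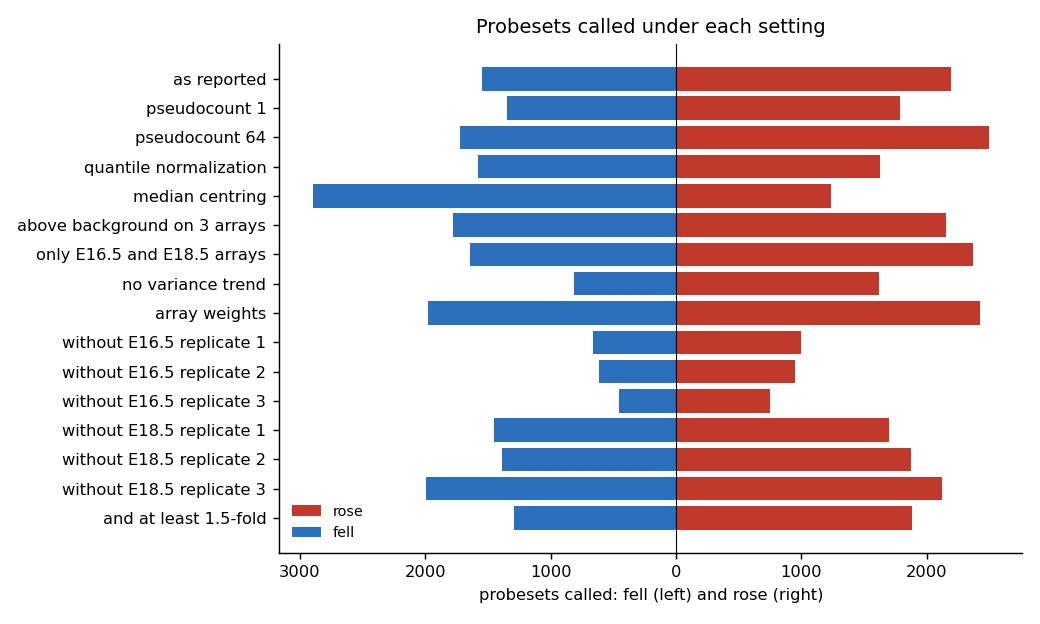
Number of probesets called as fallen (blue, to the left of 0) and risen (red, to the right of 0) between E16.5 and E18.5 under each way of processing the arrays. As reported, 2191 rose and 1551 fell; median centring gave 1234 and 2898, and leaving out an E16.5 array gave 1208 to 1662 in all.

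A gene was called by its brightest probeset, and by this measure 1146 of the 18193 genes rose (6.3%) and 964 fell (5.3%), with a median log2 change of 0.113 over all genes. The counts of gene lists and markers below are to be read beside these shares. Of the 9010 genes with at least 2 probesets, 253 had 2 or more probesets called up and none down (2.81%), and 162 had 2 or more called down and none up (1.8%). Another 83 genes (0.921%) had probesets called in both directions. Genes with such agreeing probesets are favoured below. A rule named 142 genes, of which 67 kept their call in every fitted setting, and the text keeps mainly to those. The rule required no overlap between the stages. For the largest changes, and wherever a list held such genes, it also required agreeing probesets. In genes named by the rule these traits are therefore no separate support. Genes marked post hoc were chosen after their values were seen, so in these a lack of overlap is no separate support either. Every change is a log2 difference, E18.5 minus E16.5, of the brightest probeset unless stated, over 3 arrays a stage. Its standard error (SE) is that of the limma fit. The spread in that fit was estimated from all arrays, those at E14.5 included, with a variance trend. The SE is therefore not the spread of the compared arrays alone.

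**Figure D2:**
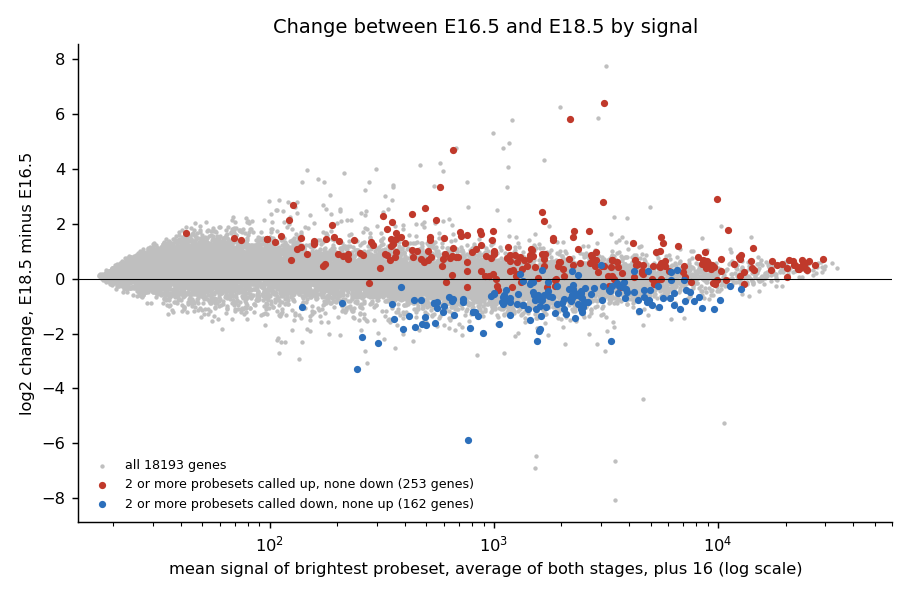
Each point is 1 of 18193 genes, placed by the signal of its brightest probeset (horizontal, log scale, with 16 added) and its log2 change from E16.5 to E18.5 (vertical). Red marks the 253 genes with agreeing probesets that rose and blue the 162 that fell; a few red or blue points lie on the other side of 0 because their brightest probeset was not among those called. The dim genes at the left lie mostly above 0.

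Among genes with 2 or more agreeing probesets, and outside the epidermal, follicle and other marker genes that were set aside, the largest rise was that of Gpd1, the cytosolic enzyme that makes glycerol 3-phosphate, the backbone of triglycerides. Its signal was 134.4, 99.3 and 43.1 on the E16.5 arrays and 1075, 1164 and 824.7 on the E18.5 arrays. The stages stood far apart, and the difference was 12.1-fold (log2 change 3.35 ± 0.34 SE, adjusted p = 0.000505). A second probeset of Gpd1 rose as well (2.55 ± 0.37), while its 2 other probesets did not pass the test. Ddr1, a receptor tyrosine kinase that binds collagen, gave 953.2, 844.1 and 510.8 at E16.5 and 6996, 3869 and 5225 at E18.5. It was 7.01-fold higher without overlap (2.78 ± 0.25, adjusted p = 0.000329), but only 2 of its 8 probesets were called, and the other 6 ranged from -0.42 to 1.30.

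Car5b, a mitochondrial carbonic anhydrase, went from 4.7, 28.4 and 23.6, all below background, to 239.9, 226.2 and 139.3, at least 4.47-fold (2.68 ± 0.37, adjusted p = 0.00208). Arg2, the mitochondrial arginase, went from 94.2, 144 and 126.9 to 888.8, 806.6 and 438.6, a 5.67-fold rise (2.36 ± 0.32, adjusted p = 0.00192). Every E18.5 array lay well above every E16.5 array for both enzymes. Adhfe1, a mitochondrial transhydrogenase, was at least 3.9-fold higher (2.15 ± 0.35, adjusted p = 0.00454). With a pseudocount of 64 in place of 16 the log2 changes of Car5b and Adhfe1 were 1.67 and 1.39. Gadl1, a decarboxylase, read 5.71-fold higher (2.30 ± 0.50, adjusted p = 0.017) but lost its call without E16.5 replicate 1 (adjusted p = 0.0705), E18.5 replicate 1 (0.0582) or 2 (0.056), or with a pseudocount of 1 (0.087). Slco4a1, an organic anion transporter that also carries thyroid hormone, was 3.79-fold higher, and Nsmf, a synapse-to-nucleus messenger protein, was 3.4-fold higher (adjusted p = 0.00476 and 0.000446). Only 2 of the 4 Nsmf probesets were called, and the median of all 4 was 0.74.

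The largest fall within the same limits was that of Upk3b, a uroplakin of urothelium and mesothelium. Its signal dropped from 240.2, 588.6 and 467.2 to 21.8, 30.6 and 30.1, and all 3 E18.5 arrays were below background. The fall was at least 5.17-fold (-3.28 ± 0.32, adjusted p = 0.000476), and its second probeset fell too (-3.46). With a pseudocount of 64 its log2 change was -2.37. Gng4, a G protein gamma subunit, went from 5245, 5417 and 5719 to 1292, 1395 and 754.3 (-2.28 ± 0.25, adjusted p = 0.000679), so a bright and even signal at E16.5 became 4.93-fold lower. Dcx, the microtubule protein doublecortin, known from migrating neurons, went from 454, 336 and 403.3 to 69.5, 44.2 and 142.8, at least 4.19-fold lower (-2.14 ± 0.37, adjusted p = 0.00596). Only 2 of its 4 probesets were called, and the median of all 4 was -0.91. The 13 neuron markers had a median of -0.159 and summed signals of 1953–2150 (E16.5) and 1875–1960 (E18.5), and their part in the fall of Dcx was not tested.

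Atp1b1, the beta subunit of the sodium pump, fell with 4 of its 5 probesets called. Its signal was 2266, 2353 and 2882 at E16.5 and 603.6, 743.5 and 595.7 at E18.5, a 3.86-fold difference without overlap (-1.92 ± 0.19, adjusted p = 0.000528). Other falls were those of Mal, a membrane raft protein (3.59-fold), Plekhh1 (3.34-fold, 3 of 3 probesets), Far2, which reduces fatty acyl chains to the alcohols of waxes (3.19-fold), and Khsrp, an RNA-binding protein that promotes mRNA decay (2.85-fold). Slc4a1, the anion exchanger of red cells, was 3.32-fold lower (-1.65 ± 0.31, adjusted p = 0.00877). It belongs to 11 erythroid markers, of which 4 fell and 0 rose, with summed signals of 5643–11136 (E16.5) and 2470–3554 (E18.5). The number that fell was 2 without E16.5 replicate 1 or 3, without E18.5 replicate 1 or 2, and with the 6 arrays alone. The part of red cell content in other falls was not tested.

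A few of the largest changes did not hold in every setting. Sod3 (-2.27), the extracellular superoxide dismutase, lost its call when any single E16.5 array was dropped (adjusted p of 0.0624, 0.0965 and 0.119 in order) and without E18.5 replicate 1 or 3 (0.0912 and 0.0716), with a pseudocount of 1 (0.177) and without a variance trend (0.0728). Uba6 (-1.67), which activates ubiquitin, lost its call without any of the 3 E16.5 arrays (0.0619, 0.054 and 0.0593) or E18.5 replicate 1 (0.0579), or without a variance trend (0.0514). Gas2l3 (-1.98), a linker of actin and microtubules, lost it without E16.5 replicate 2 (0.0522) or 3 (0.0627), and Dlg4 (-1.48), a synaptic scaffold, without E16.5 replicate 1 (0.0558) or 3 (0.0874). Steap4 (2.13), which reduces iron and copper, lost it without E16.5 replicate 2 (0.0535) or 3 (0.0599).

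**Figure D3:**
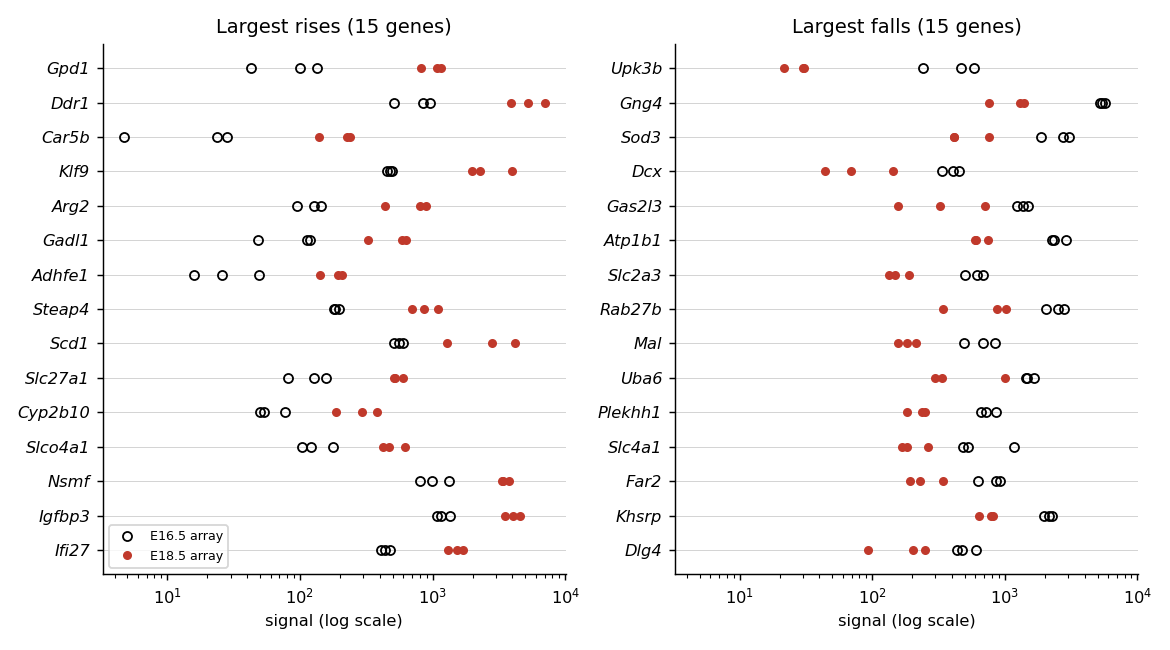
Signal on each array (log scale) for the 15 largest rises and 15 largest falls among genes with agreeing probesets, ordered by log2 change. Open circles are the 3 E16.5 arrays and red points the 3 E18.5 arrays; in each of the 30 genes the stages do not overlap, which the rule required.

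Single genes of lipid metabolism changed in both directions. Scd1, which puts the double bond into stearic acid, gave 515.6, 557.2 and 597.1 at E16.5 and 2817, 4167 and 1290 at E18.5 (2.12 ± 0.35, adjusted p = 0.00484). The E18.5 arrays were uneven, yet the lowest still exceeded every E16.5 array. Slc27a1, a fatty acid transporter, rose 4.61-fold, from 81.4, 156.9 and 128.5 to 600.5, 513.3 and 521.6 (2.06 ± 0.28, adjusted p = 0.00206). Thrsp, a promoter of fatty acid synthesis, rose 2.88-fold (1.44 ± 0.21, adjusted p = 0.00311), and Crat, which moves acetyl groups onto carnitine, rose 2.49-fold. Only 1 of the 3 Crat probesets was called, and the median of all 3 was 0.78. Dgat2, which adds the last fatty acid to a triglyceride, went the other way, from 8162, 9658 and 9606 to 4545, 4903 and 3480, a 2.14-fold fall seen in both of its probesets (-1.09 ± 0.14, adjusted p = 0.00142).

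Of 27 genes of fatty acid and triglyceride synthesis 5 rose (18.5%) and 2 fell (7.41%), with a median log2 change of 0.056, and 3 rose without E16.5 replicate 2 or 3. Under median centring the median was -0.116. The number that fell was 1 without E16.5 replicate 1, 2 or 3. Of 27 genes of lipoproteins and lipid transport 5 rose (18.5%) and 2 fell (7.41%), with a median of 0.484. At least 4 of these rose whichever array was left out, but 0 fell without E16.5 replicate 1, 2 or 3 or E18.5 replicate 2, and 1 without E18.5 replicate 3. Vldlr, the very low density lipoprotein receptor, rose (1.29 ± 0.16, adjusted p = 0.00118), although only 1 of its 6 probesets was called and their median was 0.44. Cd36, of the same list, rose with 3 of 3 probesets called (1.08 ± 0.21, adjusted p = 0.0117). Lgals12, a galectin of lipid droplets, and Abcd2, a peroxisomal fatty acid transporter, rose by log2 1.37 and 1.47 with 2 probesets each (post hoc).

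These rises came beside those of fat cell markers. Of 11 adipocyte markers 10 rose and 0 fell, and their summed signal was 10403–14026 (E16.5) and 45435–59657 (E18.5). Adipoq, the adiponectin gene (post hoc), was 350.6, 39.6 and 20.6 at E16.5 and 7023, 7215 and 2783 at E18.5 (5.85 ± 0.74, adjusted p = 0.00141), and its log2 change was 6.86 without E16.5 replicate 1 and 5.19 without E16.5 replicate 3. Among 11 markers of brown fat 3 rose and 0 fell, with a median of 0.524 and summed signals of 2542–2615 (E16.5) and 2784–3902 (E18.5). The genes that rose were Elovl3, which lengthens fatty acids (2.48), Cox7a1 (1.64) and Dio2, which activates thyroid hormone (1.05). The other 8 did not pass the test, among them Ucp1, the heat-producing uncoupling protein, which had a log2 change of 0.04 with signals of 7.8 to 39.5, and Cidea one of 0.46. The part of fat cell number in the lipid genes was not tested.

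Of 28 glycolysis genes 5 fell (17.9%) and 2 rose (7.14%), with a median of 0.15 that turned to -0.021 under median centring. Gpd1, described above as the maker of glycerol 3-phosphate, was on this list and among those that rose. Without E16.5 replicate 1, 2 or 3 the number that fell was 2, 2 and 1. The number that rose was 4 without E18.5 replicate 2 and 1 without any other array. Hk1, the hexokinase of the first step (post hoc), fell from 1872, 1941 and 2166 to 1125, 1221 and 1114 (-0.78 ± 0.12, adjusted p = 0.00351). Slc2a3, a high-affinity glucose transporter, fell 3.82-fold, from 500.8, 679.5 and 618.2 to 149.4, 134.5 and 188.4 (-1.83 ± 0.18, adjusted p = 0.000476), although 2 of its 4 probesets did not pass the test. Slc7a5, a carrier of large neutral amino acids (post hoc), fell from 3122, 3258 and 4002 to 1520, 1446 and 1576 (-1.18 ± 0.14, adjusted p = 0.00112). The stages did not overlap for any of these genes. Psat1, which makes serine, fell 1.62-fold with both probesets (-0.69 ± 0.12, adjusted p = 0.0057), while Glul, glutamine synthetase (post hoc), rose from 1656, 1608 and 1572 to 4925, 4737 and 2729 (1.30 ± 0.20, adjusted p = 0.00335).

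Of 77 genes of oxidative phosphorylation 11 rose (14.3%) and 2 fell (2.6%), with a median of 0.154. The number that rose was 3 without each of the E16.5 arrays in turn. The number that fell was 5 without E18.5 replicate 1 and 1 without any other array, and under median centring 2 rose and 5 fell. Atp5k, a small subunit of ATP synthase, fell in every setting, from 12620, 12849 and 13032 to 7394, 7463 and 7582 (-0.78 ± 0.10, adjusted p = 0.00185). Cox7a1, a cytochrome oxidase subunit of muscle and brown fat (post hoc), rose from 88.7, 50.3 and 69.5 to 357.6, 184.9 and 223.5 (1.64 ± 0.31, adjusted p = 0.00971). Of 20 skeletal muscle markers 2 rose and 4 fell, with summed signals of 128953–142110 (E16.5) and 143253–220496 (E18.5), and the part of muscle in Cox7a1 was not tested. The number of these markers that fell was 2 without any single E16.5 array or E18.5 replicate 1, and 1 rose without any single E16.5 array or E18.5 replicate 3. In the mitochondrial ribosome Mrpl33 rose 2.05-fold with 2 probesets and Mrpl14 fell 2.06-fold (adjusted p = 0.00223 and 0.00768).

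Genes that respond to or carry hormone signals changed in single members. Klf9, a transcription factor induced by thyroid hormone and glucocorticoids, gave 495.6, 480.2 and 455.7 at E16.5 and 1975, 3993 and 2292 at E18.5. The even E16.5 values and the lowest E18.5 value were far apart (5.5-fold, 2.42 ± 0.27, adjusted p = 0.000679), and 3 of its 7 probesets rose. Of 26 genes of steroid, thyroid and vitamin D signalling 4 rose (15.4%, beside 6.3% of all genes) and 0 fell (median 0.416). Only 15 of the 26 were above background on all 6 arrays, and the receptor genes that stand for background had a median of 0.348. The part of background in the result was not tested. Without E16.5 replicate 1 or 3 the number that rose was 2. Esr1, the estrogen receptor alpha (post hoc), rose from 217.3, 214.4 and 165.4 to 449.2, 436.2 and 491.6 (1.15 ± 0.19, adjusted p = 0.00503). Ppard, a fatty acid-sensing nuclear receptor (post hoc), fell from 1175, 1102 and 1121 to 329.7, 340.5 and 472.3 (-1.55 ± 0.28, adjusted p = 0.00824), a change seen in 1 of its 2 probesets.

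Prostaglandins are lipid signals made from arachidonic acid. The receptor Ptger4 rose from 497.3, 332.5 and 262 to 1017, 1342 and 986 (3.14-fold, 1.61 ± 0.23, adjusted p = 0.00269), and Ptgds, a prostaglandin D synthase, rose 2.16-fold (adjusted p = 0.00922). Both had agreeing probesets. Pla2g2f, a secreted phospholipase of the epidermis, fell 2.06-fold, from 4982, 5675 and 6177 to 3038, 2593 and 2539. In all, 3 of the 29 genes of this list rose (10.3%) and 1 fell (3.45%). The number that rose was 3 whichever array was left out, and 2 fell without E18.5 replicate 3.

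Insulin-like growth factors circulate bound to binding proteins, and 2 of these moved in opposite directions. Igfbp3 rose from 1158, 1358 and 1073 to 3546, 4058 and 4589 (3.39-fold, 1.75 ± 0.14, adjusted p = 0.000179). Igfbp5 fell from 7006, 5183 and 6046 to 2556, 2099 and 3608 (2.25-fold, -1.16 ± 0.19, adjusted p = 0.00446). Each had both of its probesets called in its own direction. Socs2, an inhibitor of growth hormone signalling, rose 2.91-fold with 3 of 6 probesets (adjusted p = 0.00506). The ligands Igf1 and Igf2 and the receptor Igf1r did not pass the test by their brightest probesets (-0.33, 0.28 and 0.06). Of the 27 genes of the system 3 rose (11.1%) and 5 fell (18.5%), and without E16.5 replicate 1, 2 or 3 the number that fell was 2, 2 and 1.

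Among the ligands of the epidermal growth factor receptor, Ereg (epiregulin) had the largest change. Its signal was 1350, 1512 and 1432 at E16.5 and 99, 384.1 and 188.5 at E18.5, which is 7.42-fold lower (-2.78 ± 0.38, adjusted p = 0.00199). The E16.5 arrays were close to each other and the E18.5 arrays spread widely below them. Of 21 family members 3 fell (14.3%) and 1 rose (4.76%), and 1 fell without E16.5 replicate 3. Lrig3, an inhibitor-like membrane protein of the family, rose 1.84-fold with 2 probesets (adjusted p = 0.00463). The receptors Egfr, Erbb2 and Erbb3 (post hoc) had log2 changes of -0.05, -0.36 and -0.09, none past the test. In the fibroblast growth factor pathway Klb, a coreceptor for endocrine ligands, rose from 14.4, 16.3 and 23.3, all below background, to 214.4, 310.2 and 105.4 (at least 4.36-fold, log2 change 2.63, or 1.67 with a pseudocount of 64, adjusted p = 0.00595). Only 1 of its 2 probesets was called.

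The transforming growth factor beta and activin pathway had 5 of 33 genes that rose (15.2%) and 0 that fell (median log2 change 0.268). At least 5 rose whichever array was left out, 1 fell without E18.5 replicate 3, and 5 rose under quantile normalization and under median centring, where 1 fell. All 5 are secreted. Fstl1, a follistatin-like glycoprotein, went from 9480, 8442 and 9209 to 19754, 18124 and 21262 (1.12 ± 0.10, adjusted p = 0.000343). Tgfbi, a matrix protein named for its induction by this growth factor, went from 1088, 987.1 and 887.8 to 2873, 2759 and 2359, with 4 of 4 probesets called (1.42 ± 0.20, adjusted p = 0.00276). The arrays of a stage lay close together in both genes. Ltbp3 and Ltbp1, which hold latent growth factor in the matrix, and Fst, the activin inhibitor follistatin, rose by log2 1.35, 0.99 and 0.97 (post hoc), each with 1 probeset called.

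Interferon-stimulated genes are switched on in a cell by secreted interferons and encode antiviral proteins, many of them through a promoter motif called the interferon-stimulated response element. Of 44 measured, 12 rose and 0 fell, a share of 27.3% beside 6.3% of all genes, and the median log2 change was 0.655 beside 0.113. Without E16.5 replicate 1, 2 or 3 the number was 6, 4 and 6, and under quantile normalization it was 8. Only 31 of the 44 were above background on all 6 arrays, and the receptor genes that stand for background had a median of 0.348. Its part in the result was not tested. The plot of the 44 genes shows the spread.

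**Figure D4:**
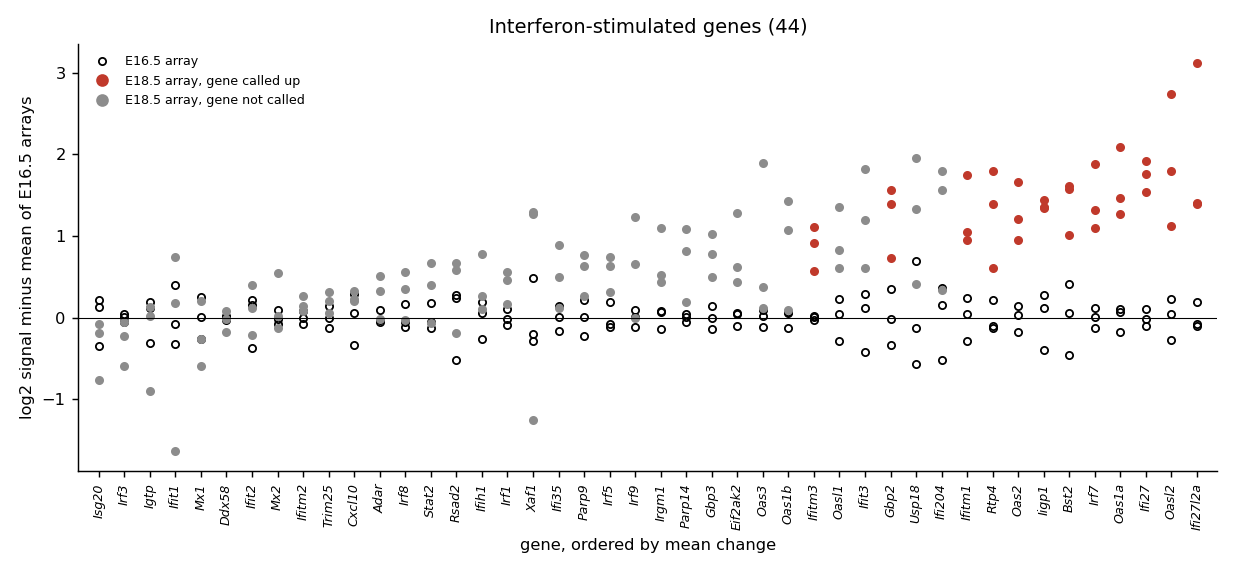
Log2 signal on each array minus the mean of the 3 E16.5 arrays, for 44 interferon-stimulated genes ordered by mean change. Open circles are E16.5 arrays; filled points are E18.5 arrays, red for the 12 genes called up and grey for the others. For the red genes the highest of the 3 points is mostly E18.5 replicate 1.

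The promoters of 2 of the 12 genes that rose are shown because both hold the motif GAAA, any 2 bases, GAAA, which was used to stand for the response element and was searched on both strands. Each is the 250 bases upstream of the gene start, 5′ to 3′ on the strand of the gene, from RefSeq on GRCm38.p6, with matching stretches in capitals. The Oas1a window is chr5:120907526-120907775 and the Bst2 window chr8:71537473-71537722, both on the minus strand.
Oas1a: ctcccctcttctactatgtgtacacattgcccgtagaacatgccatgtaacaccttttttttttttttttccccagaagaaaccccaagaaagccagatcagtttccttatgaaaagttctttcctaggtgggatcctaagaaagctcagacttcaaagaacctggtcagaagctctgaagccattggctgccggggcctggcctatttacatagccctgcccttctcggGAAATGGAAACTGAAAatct
Bst2: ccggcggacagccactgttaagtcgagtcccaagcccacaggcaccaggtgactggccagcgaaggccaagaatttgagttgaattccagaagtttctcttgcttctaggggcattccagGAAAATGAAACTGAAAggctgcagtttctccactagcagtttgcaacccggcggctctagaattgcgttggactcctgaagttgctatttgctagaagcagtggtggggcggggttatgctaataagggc
The stretch began 20 bases upstream of the start of Oas1a and 130 bases upstream of that of Bst2. Of 32851 promoters of this length, 978 (2.98%) held the motif, beside 13 of the 32 listed genes with a promoter in the table and 3 of the 7 such genes that rose.

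Oas1a, an oligoadenylate synthetase that senses double-stranded RNA (post hoc), gave 80.9, 98.4 and 101 at E16.5 and 445.9, 247.1 and 284.1 at E18.5 (1.60 ± 0.28, adjusted p = 0.0069). Bst2, the viral tether tetherin (post hoc), gave 106.1, 158.2 and 207.3, then 495.7, 324 and 486.2 (1.40 ± 0.29, adjusted p = 0.0145), but lost its call without E16.5 replicate 1 (0.0621) or 2 (0.0533). The stages did not overlap in either. Ifi27, a mitochondrial membrane protein, rose from 434.8, 409 and 475.3 to 1706, 1518 and 1300 (3.42-fold, 1.74 ± 0.17, adjusted p = 0.000476) with both probesets. Ifitm3 and Ifitm1, which block virus entry and are close copies, rose by log2 0.87 and 1.25 (post hoc), and their separate values are uncertain. E18.5 replicate 1 was the highest array in 10 of the 12 genes that rose. It also had the highest background, 92.9 beside 62.9 on replicate 2 and 81.8 on replicate 3. The part of background in the interferon genes was not tested. Without E18.5 replicate 1, 11 of the list rose.

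Complement proteins mark microbes and debris for removal. Of 46 genes of complement and coagulation 5 rose (10.9%, beside 6.3% of all genes) and 0 fell (median 0.411). The receptor genes that stand for background had a median of 0.348, and 22 of the 46 were above background on all 6 arrays. The part of background in the result was not tested. The number that rose was 3 without E16.5 replicate 1, 2 or 3 or under median centring, and 8 without E18.5 replicate 1. The first proteases of the classical pathway and their inhibitor were among the genes that rose. C1ra went from 70.5, 63.6 and 49.7 to 391, 264.8 and 255.9 (2.03 ± 0.32, adjusted p = 0.00381), and C1s1 from 252.9, 226.8 and 193.9 to 592.7, 455.8 and 643.8 (1.26 ± 0.21, adjusted p = 0.00497), both post hoc. Serping1, which blocks both proteases, went from 600.6, 502.2 and 500 to 1370, 1135 and 1186 (1.18 ± 0.16, adjusted p = 0.00206). None of these overlapped between the stages. Beside these genes, 5 of 14 markers of macrophages and Langerhans cells rose and 1 fell, with summed signals of 10003–11060 (E16.5) and 12126–16043 (E18.5), and 3 rose and 0 fell without any single E16.5 array. The complement and macrophage counts are not separate, because C1qb, which rose (log2 change 0.85), is in both lists. No macrophage marker fell without E18.5 replicate 2 or 3. The 10 T cell markers summed to 4215–4559 (E16.5) and 3433–4235 (E18.5). The part of macrophage content in the interferon and complement genes was not tested.

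Metallothioneins are small proteins that bind zinc and copper and are induced by these metals through the metal response element. Mt2 gave 1631, 2048 and 2081 at E16.5 and 6622, 5178 and 4027 at E18.5 (1.43 ± 0.25, adjusted p = 0.0069), and Mt4, the form of stratified epithelium, gave 48.5, 97.8 and 89.4, then 868.1, 516.6 and 306 (2.54 ± 0.46, adjusted p = 0.00776), both post hoc. Their stages did not overlap, and both calls held in every fitted setting. Mt1 read higher (0.93 ± 0.24, adjusted p = 0.0335) but lost its call without any single E16.5 array (0.118, 0.0838 and 0.0983) and without E18.5 replicate 1 or 2 (0.0925 and 0.0919), under median centring (0.0644) and without a variance trend (0.0891). Mt1 and Mt2 are close copies, so their separate values are uncertain.

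The promoters of Mt2 and Mt4 are shown for the core of the metal response element, written here as TGCACNC or TGCGCNC on either strand. The windows are chr8:94172368-94172617 for Mt2 and chr8:94136954-94137203 for Mt4, both on the plus strand, from RefSeq on GRCm38.p6, with matches in capitals.
Mt2: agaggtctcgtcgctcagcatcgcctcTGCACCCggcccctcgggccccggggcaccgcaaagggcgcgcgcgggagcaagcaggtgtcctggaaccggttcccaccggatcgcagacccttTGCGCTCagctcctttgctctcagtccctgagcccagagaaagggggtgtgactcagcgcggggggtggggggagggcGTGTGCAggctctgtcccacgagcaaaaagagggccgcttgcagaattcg
Mt4: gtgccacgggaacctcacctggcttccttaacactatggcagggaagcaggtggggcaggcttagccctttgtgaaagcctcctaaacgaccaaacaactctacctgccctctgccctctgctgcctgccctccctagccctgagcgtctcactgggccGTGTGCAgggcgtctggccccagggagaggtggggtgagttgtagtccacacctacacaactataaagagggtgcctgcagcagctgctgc
Mt2 held 3 matches, which began 223, 128 and 50 bases upstream of its start, and Mt4 held 1, at 91 bases. The window of Mt1 held 1. Of all 32851 promoters, 7032 (21.4%) held at least 1 match and 253 (0.77%) at least 3, so that 1 match is common and 3 are rare. A match describes letters and not binding.

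Of 35 genes of metal handling as a whole 8 rose (22.9%) and 3 fell (8.57%). The median was 0.301, but -0.048 under quantile normalization, and 5 rose without E16.5 replicate 2 or 3 or under median centring. Of 44 genes of glutathione and oxidative stress 6 rose (13.6%) and 5 fell (11.4%). Without E16.5 replicate 1, 2 or 3 the number that rose was 2, 1 and 0, 3 fell without E16.5 replicate 3, and 1 rose under median centring. Gsta4, which detoxifies lipid peroxidation products (post hoc), fell from 811.7, 598.5 and 714.1 to 136.6, 121.5 and 135.7 (-2.29 ± 0.17, adjusted p = 0.000114). Its E18.5 arrays were nearly equal and far below those of E16.5.

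Cytochrome P450 and related enzymes metabolise foreign compounds, steroids and fatty acids. Of 110 genes of cytochrome P450, aldehyde and glucuronide enzymes 14 rose (12.7%, beside 6.3% of all genes) and 3 fell (2.73%, beside 5.3%). The median was 0.345, beside 0.348 for the receptor genes that stand for background. Only 47 of the 110 were above background on all 6 arrays. Of those that rose, Cyp1b1, Cyp2c70 and Cyp2d34 were not above background on every E18.5 array. The part of background in these counts was not tested. The number that rose was 7 without E16.5 replicate 1 and 6 without E16.5 replicate 3. The number that fell was 1 without E16.5 replicate 1, 2 or 3, 2 without E18.5 replicate 1 and 5 without E18.5 replicate 2. Under quantile normalization 10 rose and 5 fell, and under median centring 9 and 6. Cyp2b10 rose from 53.5, 77.3 and 49.9 to 377.8, 293.5 and 186.7 with all 3 probesets (4.65-fold, 1.95 ± 0.32, adjusted p = 0.00462). Cyp2f2 went from 58.4, 71.7 and 59.4 to 595.8, 372.9 and 276.4 (2.38 ± 0.34), and Ephx1, the microsomal epoxide hydrolase, from 518.9, 439.7 and 436.8 to 1293, 1175 and 946.8 (1.26 ± 0.19), both post hoc. Here too the stages did not overlap. Cyp4f39, which makes very long omega-hydroxy fatty acids for the skin barrier, fell 2.15-fold, from 2060, 1926 and 2197 to 910.3, 1256 and 763.9 (adjusted p = 0.00607).

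In retinoid handling Crabp1, a retinoic acid-binding protein of the dermis, fell from 3181, 2797 and 3081 to 1106, 1051 and 1239 (2.67-fold, -1.40 ± 0.11, adjusted p = 0.00018). Aldh1a1, which makes retinoic acid (post hoc), went from 38, 75.8 and 42.1 to 219.1, 190 and 164.5 (1.64 ± 0.29, adjusted p = 0.00704), starting near background. Of 34 retinoid genes 4 rose (11.8%) and 3 fell (8.82%). Without E16.5 replicate 1, 2 or 3 the number that rose was 2, 1 and 1, and without E16.5 replicate 3 the number that fell was 1. Under median centring 2 rose and the median turned from 0.166 to -0.006.

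Sulfate must enter the cell and be activated before it is added to the glycosaminoglycan chains of the matrix. Slc26a2, the sulfate transporter (post hoc), fell from 2327, 2020 and 2070 to 993.3, 1026 and 1146 with 2 of 3 probesets (-1.01 ± 0.13, adjusted p = 0.00181). Papss2, which makes the activated sulfate donor, fell from 1709, 1542 and 1488 to 553.4, 609.9 and 684.6 (2.57-fold, -1.34 ± 0.13, adjusted p = 0.000476), although only 1 of its 4 probesets was called and their median was -0.49. Neither gene overlapped between the stages. Of 55 genes of hyaluronan and glycosaminoglycan synthesis 7 fell (12.7%) and 5 rose (9.09%). Dropping E16.5 replicates 1, 2 and 3 in turn left 3, 4 and 2 that fell and 3, 3 and 1 that rose, and 2 rose without E18.5 replicate 2. Under median centring 12 fell and 3 rose.

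Genes of nerve growth and guidance changed on both the receptor and the ligand side. Ngfr, the low-affinity neurotrophin receptor of nerves, Schwann cells and follicle mesenchyme, fell from 985.6, 1057 and 1276 to 481.2, 373.2 and 578.3 with 3 of 3 probesets (2.34-fold, -1.20 ± 0.18, adjusted p = 0.00341). Gfra2, the neurturin receptor, rose from 485.8, 486.7 and 350.6 to 995.3, 1486 and 1270 (1.47 ± 0.18, adjusted p = 0.00132), and Ptn, the growth factor pleiotrophin, from 1686, 1673 and 1203 to 3502, 3343 and 3508 (1.19 ± 0.14, adjusted p = 0.00101), both post hoc and each with 1 probeset called. In each the stages were apart. Of 22 genes of neurotrophins and glial-derived factors 5 rose (22.7%) and 2 fell (9.09%). When E16.5 replicates 1, 2 and 3 were dropped in turn 3, 2 and 2 rose, and 3 rose without E18.5 replicate 1. The number that fell was 4 without that array and 1 without any other. Quantile normalization left 3 that rose and 1 that fell. Of 12 Schwann cell markers 1 rose and 1, Ngfr itself, fell, and their summed signal was 10258 to 10909 and 11728 to 12439.

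Among guidance molecules the slit receptors Robo2 and Robo1 (post hoc) rose and the class 4 semaphorin Sema4a fell. Robo2 gave 188.3, 270.7 and 168.8 at E16.5 and 687.1, 468.6 and 810.1 at E18.5 (1.57 ± 0.25, adjusted p = 0.00411), and Robo1 had a log2 change of 1.03 ± 0.15 (adjusted p = 0.00281). Sema4a went from 2220, 2158 and 2297 to 834.8, 970.7 and 676.5 (2.72-fold, -1.42 ± 0.15, adjusted p = 0.000581), in 1 of its 2 probesets, and its relative Sema4b (post hoc) had a log2 change of -1.31 ± 0.17 (adjusted p = 0.0014). Of 71 semaphorins, ephrins, slits, netrins and receptors 9 rose (12.7%) and 5 fell (7.04%). The number that rose was 3, 3 and 2 without E16.5 replicates 1, 2 and 3 and 5 without E18.5 replicate 1 or 3, and the number that fell was 2, 3 and 2 without the E16.5 arrays. Under median centring 3 rose and 15 fell. In vessels, Cdh5, the cadherin that joins endothelial cells, fell 2.59-fold, from 936.2, 1013 and 1165 to 529.2, 283.1 and 426.7 (adjusted p = 0.00554), with 1 of its 2 probesets called. Of 18 markers of blood endothelium, Cdh5 among them, 2 fell and 1 rose, with a median of -0.022 and summed signals of 17485–19184 (E16.5) and 15071–17542 (E18.5), and 4 fell under median centring. The part of endothelial content in the fall of Cdh5 was not tested.

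Srsf1, a splicing factor that selects exons, rose in 4 of its 7 probesets, from 4145, 4419 and 3495 to 9467, 8800 and 9542 (2.32-fold, 1.21 ± 0.11, adjusted p = 0.000369). The stages were far apart on these bright probesets. Of 60 splicing factors 13 rose and 3 fell, a share of 21.7% that rose beside 6.3% of all genes, yet the median of 0.042 was below that of all genes, 0.113. The number that rose was 6, 7 and 6 without E16.5 replicates 1, 2 and 3, 8 without E18.5 replicate 2, and 6 under median centring, where the median was -0.13 and 5 fell. The number that fell was 0 without E16.5 replicate 1 or 3, 2 without E16.5 replicate 2 and 6 without E18.5 replicate 3.

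Chromatin and transcription factor genes changed in both directions. Kmt5a, which adds the mark of histone H4 lysine methylation, fell 1.8-fold with 2 probesets (-0.84 ± 0.10, adjusted p = 0.00119), and Lmnb1, a lamin of the nuclear envelope, rose 1.8-fold with both (0.84 ± 0.13, adjusted p = 0.00344). Hmga2, a chromatin protein of growing embryonic tissue (post hoc), fell from 1228, 1068 and 1289 to 457.1, 387.2 and 549.2 with 3 of 4 probesets (-1.34 ± 0.15, adjusted p = 0.000889). Mycn, a growth-promoting transcription factor (post hoc), rose from 410.1, 379.5 and 258.9 to 1022, 953.9 and 1147 with 2 of 3 probesets (1.55 ± 0.21, adjusted p = 0.00208). Both were without overlap. Sox9, known from follicle stem cells and cartilage, rose 2.61-fold with 2 probesets (adjusted p = 0.00465). Trim2, a ubiquitin ligase (post hoc), fell in all 6 of its probesets, and its brightest went from 3321, 2804 and 2791 to 1139, 1191 and 1267 (-1.29 ± 0.16, adjusted p = 0.00128).

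The paralogous small GTPases Rab27a and Rab27b, which bring secretory granules and melanosomes to the cell surface, moved in opposite directions. Rab27a rose from 308.7, 244.8 and 211.7 to 776.9, 821.8 and 665.8 (2.98-fold, 1.52 ± 0.22, adjusted p = 0.00311). Rab27b fell from 2516, 2053 and 2777 to 342.6, 1012 and 879.9 (3.61-fold, -1.82 ± 0.33, adjusted p = 0.00746). Each had 2 of 4 probesets called. The rule required that these go 1 way and that the stages do not overlap. Of 12 melanocyte markers 7 rose and 1 fell, with summed signals of 6579–8228 (E16.5) and 11131–16330 (E18.5), and their part in the rise of Rab27a was not tested. The number of these markers that rose was 3 without any single E16.5 array and 4 without E18.5 replicate 1 or under median centring, and 0 fell without E16.5 replicate 2 or 3. Rab5c, of early endosomes (post hoc), fell from 2057, 3247 and 3063 to 564.9, 678.6 and 722.4 (-2.04 ± 0.18, adjusted p = 0.000315).

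Of 189 membrane traffic genes 15 rose and 15 fell (median 0.024). That is 7.94% each way, near the 6.3% and 5.3% of all genes. The number that rose was 1, 2 and 1 without E16.5 replicates 1, 2 and 3 and 8 and 7 without E18.5 replicates 1 and 2, and the number that fell was 6 without each E16.5 array. Quantile normalization gave 7 and 14 (median -0.016), and median centring 6 and 25 (median -0.148). Of 52 genes of the nonmuscle actin cytoskeleton 11 rose (21.2%) and 5 fell (9.62%). Without E16.5 replicates 1, 2 and 3 the number that rose was 4, 5 and 4 and the number that fell 2, 1 and 0. Quantile normalization left 6 that rose and median centring 2, where the median turned from 0.157 to -0.015. Tpm2, a tropomyosin of contractile filaments, rose from 3325, 3303 and 2995 to 9132, 5704 and 9515 (2.47-fold, 1.30 ± 0.20, adjusted p = 0.00332) with 2 of 4 probesets, and Myl9, a light chain of smooth muscle myosin (post hoc), by log2 0.92 ± 0.16. Of 13 markers of smooth muscle and pericytes 1 rose and 1 fell, with summed signals of 15099–18077 (E16.5) and 14119–19671 (E18.5). The summed signal of skeletal muscle markers on the E18.5 arrays was 189107, 143253 and 220496, in the same order as that of Tpm2, and above all E16.5 arrays. The part of muscle in the rise of Tpm2, or in the count of the actin list that holds it, was not tested.

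**Figure D5:**
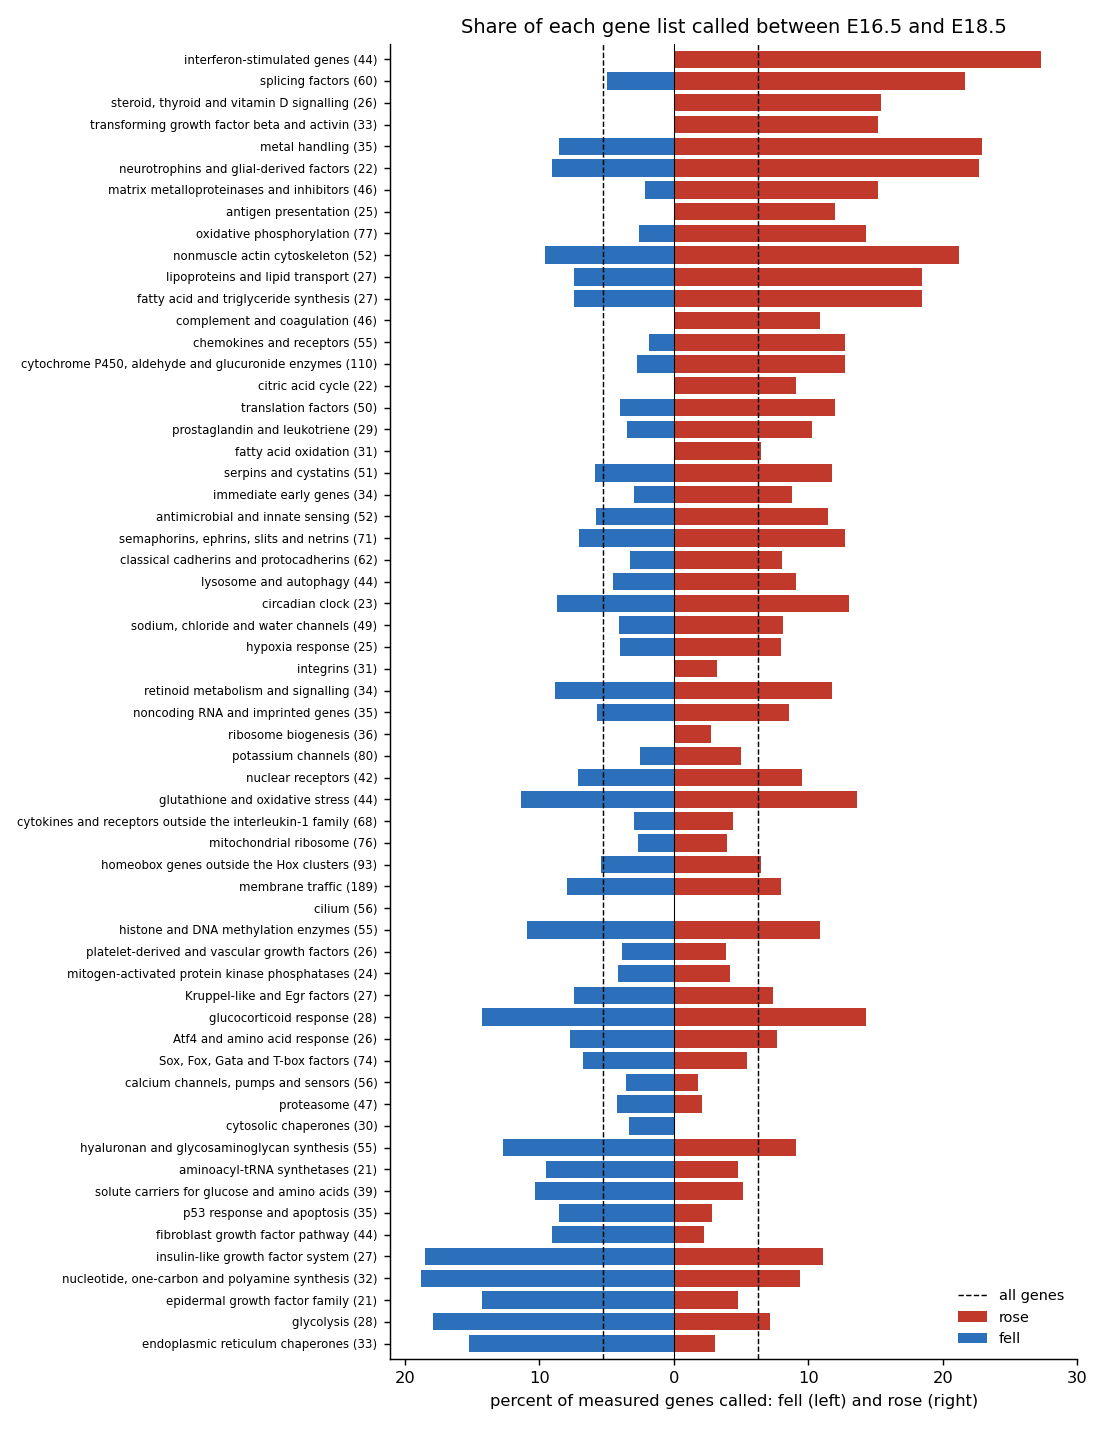
Share of each of 60 gene lists called as fallen (blue, left) or risen (red, right), with the number of measured genes in brackets and dashed lines at the shares for all genes, 5.3% fallen and 6.3% risen. Interferon-stimulated genes have 27.3% risen, and splicing factors 21.7% risen.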

How the data were processed

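Total RNA of whole dorsal skin was hybridised to Affymetrix arrays after random-hexamer whole-transcript amplification, per the labels' protocols. The deposited values are intensities on a linear scale, made by the authors with Expression Console 1.1 and PLIER 2.0 per the submitters' processing notes. How arrays were normalized to each other: not given in the sources used. No depth applies, and 3 arrays a stage limit the precision.

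Values were taken as log2(signal + 16), with no further normalization. limma 3.58.1 fitted 1 mean per stage on all 8 arrays (eBayes with a variance trend), and p-values were adjusted by Benjamini-Hochberg over 34945 probesets. Background on an array was the 95th percentile of 77 olfactory and vomeronasal receptor probesets. A fold is the ratio of geometric means, or a lower bound ("at least") against background where the dimmer stage had an array no brighter than that. The platform table gave 34958 probesets 1 symbol, 932 several and 9211 none; probesets with several or none, and control probesets, were not used. The rule named the 15 largest rises and falls with agreeing probesets and no overlap outside the usual skin marker lists, and in each gene list up to 2 such genes each way, or failing these the called gene with the largest change. Alternatives varied the pseudocount, scaling, filter, arrays and variance model. The fit was checked on simulated data with independent noise on each array and no stage-wide difference in scale or background. The check therefore does not bear on those array differences. The members and lists were chosen with earlier results of these data known.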

Additional observations from a re-analysis of the deposited data

How the results depend on the processing

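No paired analysis was possible because the codes in the sample titles (6, 7 and 8 at E16.5, and 5-5, 6-4 and 1-4 at E18.5) have no stated meaning and pair no samples. Of 3742 called probesets and 415 genes with agreeing probesets, fits without a variance trend called 2435 and 219, and leaving out 1 array called 1208 to 4120 and 109 to 486. The largest losses came without an E16.5 array. Quantile normalization called 3208 probesets and 361 genes, and median centring 4132 and 528, with 29.9% of called probesets rising beside 58.6%. The other settings, a pseudocount of 1 or 64, a background filter, the 6 arrays alone, array weights and a fold minimum, stayed within 1.5 times. Of the 142 genes named by the rule, 67 kept their call in every fitted setting and 75 lost it in at least 1. Of these, 72 lost it when some array was left out and 54 in a setting other than leaving out 1 array. A gene can be in both counts. With the median over all probesets of a gene in place of the brightest, 139 kept their sign, and Coro1a (0.25), Farsb (-0.11) and Hsp90b1 (-0.01) reversed. Differences near background cannot be ordered.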
